A study of Mus musculus with 11 samples.

Results

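The genes described here are 10 genes of fat cell formation: Pparg, Cebpa, Cebpb, Cebpd, Zfp423, Lpl, Fabp4, Plin1, Adipoq and Lepr. They were taken by symbol from 2 deposited tables of counts per gene, which list 24421 symbols each, and all 10 are in both tables. The series asks what active beta-catenin does in the mesenchymal progenitors of mouse skeletal muscle, also called fibro/adipogenic progenitors, and in the muscle around them. All mice carried a tamoxifen-inducible Cre at the Hic1 locus, a gene of mesenchymal progenitors, and a tdTomato reporter. WT/flox mice also had 1 Ctnnb1 allele with a floxed exon 3, whose removal leaves a stable beta-catenin, and WT mice had none.

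The WT/flox progenitor group has 3 libraries of sorted CD45-, CD31-, Sca1+, tdTomato+, alpha7- hindlimb cells, 74A1 and 72B7 from day 14 after tamoxifen and 74A3 from day 56. The WT progenitor group has 3 libraries, 72B8, 74A2 and 73C3, all from day 14. The deposited sample table gives 1 female, 74A1 in the WT/flox group and 74A2 in the WT group, and 2 males in each. The WT/flox muscle group has 3 libraries of whole tibialis anterior lysate, 71B3, 71B4 and 71B5, and the WT muscle group has 2, 73A5 and 73A7, all from males at day 56. The labels name 11 separate animals, and give no ages. All WT/flox muscle identifiers begin with 71B and all WT ones with 73A, so what that prefix marks and the genotype cannot be told apart in muscle. The driver acts in cells that use Hic1, while a lysate holds the RNA of every cell type of the muscle.

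Libraries held 13119843 to 16805238 counts for progenitors and 16892158 to 19449227 for muscle. Axin2, a feedback target of Wnt signalling, averaged 154 ± 17.2 CPM in WT/flox progenitors and 3.47 ± 0.696 CPM in WT progenitors (SD, n = 3 each). In muscle it averaged 17.7 ± 3.61 CPM in 3 WT/flox libraries and 10.2 ± 1.39 CPM in 2 WT libraries, which was not called (edgeR adjusted p = 0.216). Ctnnb1 was not called in either material, and its gene count says little of the loss of 1 exon. The sorted cells had 11 of 11 progenitor markers detected in every library. Summed, these were 4.35 to 4.64% of counts in WT/flox and 2.84 to 3.40% in WT libraries. Of 6 mature adipocyte markers, 4 or 5 were at 0 in each library. CPM are counts scaled to a common library size, with TMM factors within a material, and a gene is called where edgeR's adjusted p is under 0.05.

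In fat cell formation a progenitor first raises Cebpb and Cebpd, which encode early transcription factors. These act on Pparg and Cebpa, which encode the factors that hold each other on and switch on the genes of the fat cell, such as Fabp4, Plin1, Lpl and Adipoq. Canonical Wnt signalling through beta-catenin is known to block this course ahead of Pparg and Cebpa in cultured preadipocytes. Lepr encodes the receptor of leptin, the hormone that fat cells release, and marks perivascular stromal cells of bone marrow in mice.

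Lepr was the member that changed with genotype in both materials, and the promoter windows of Lepr are shown here for that reason, with 1 window of Pparg as the central regulator. They come from RefSeq on GRCm38.p6 and run from 250 bases before to 50 after an annotated start. Lepr window 1 lies at chr4:101717157-101717456, Lepr window 2 at chr4:101717656-101717955 and Pparg window 3 at chr6:115421816-115422115, all on the plus strand. Capitals mark matches to TTGCNNAA, a half-site of C/EBP factors, on either strand. Of the 3 Pparg windows, the 1 shown is the only one that holds such a match.
Lepr window 1: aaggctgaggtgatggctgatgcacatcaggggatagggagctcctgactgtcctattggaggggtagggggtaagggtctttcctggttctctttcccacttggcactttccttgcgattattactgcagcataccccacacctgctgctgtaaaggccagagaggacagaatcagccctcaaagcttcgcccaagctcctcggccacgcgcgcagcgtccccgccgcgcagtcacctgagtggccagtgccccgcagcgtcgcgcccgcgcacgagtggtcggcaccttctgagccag
Lepr window 2: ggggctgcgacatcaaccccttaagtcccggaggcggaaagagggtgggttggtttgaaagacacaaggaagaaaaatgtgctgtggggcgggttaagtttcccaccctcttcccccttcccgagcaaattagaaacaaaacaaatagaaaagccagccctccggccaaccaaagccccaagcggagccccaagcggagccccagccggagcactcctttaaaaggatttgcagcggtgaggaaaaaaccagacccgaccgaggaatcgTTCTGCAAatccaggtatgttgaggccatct
Pparg window 3: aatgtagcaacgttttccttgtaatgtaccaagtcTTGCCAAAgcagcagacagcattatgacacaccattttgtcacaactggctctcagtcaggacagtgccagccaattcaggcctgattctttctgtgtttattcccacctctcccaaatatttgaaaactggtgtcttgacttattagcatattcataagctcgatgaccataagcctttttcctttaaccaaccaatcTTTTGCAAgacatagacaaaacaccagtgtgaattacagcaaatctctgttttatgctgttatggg

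Windows were found for 7 of the 10 members, 11 windows in all, and Cebpd, Fabp4 and Lpl have none in the table. The core that TCF/LEF factors bind was searched as CTTTG followed by A or T and then again by A or T, and was in none of the 11 windows on either strand, while 16.9% of all 32817 windows of this length hold it. TTGCNNAA was found 2 times each in Pparg window 3, in the Plin1 window and in the first Zfp423 window, and 1 time in Lepr window 2. Of all windows, 10.8% hold it. These are matches of letters in short windows and show nothing about binding.

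In progenitors 1 of the 8 members tested, Lepr, was higher in WT/flox cells, and 0 were lower. Over all 12392 genes tested, edgeR called 3.66%, 2.34% as higher and 1.32% as lower. None of the regulators Pparg, Cebpa, Cebpb, Cebpd and Zfp423 passed the test, nor did Lpl or Fabp4. Plin1 and Adipoq had too few counts to be tested. The genotypes' libraries were fully apart for 2 of the 8, against 16.9% of all genes tested: Lepr was higher in all WT/flox libraries, as were 8.73% of genes, and Pparg lower, as were 8.17%.

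Lepr (ENSMUSG00000057722, GRCm38 chromosome 4, 101717404 to 101815352, plus strand) had 9216, 4389 and 7839 counts in the WT/flox progenitor libraries 74A1, 72B7 and 74A3, and 318, 376 and 586 counts in the WT libraries 72B8, 74A2 and 73C3. On the CPM scale these were 676, 323 and 594 in WT/flox cells and 23.9, 24.9 and 34.5 in WT cells. The lowest WT/flox library stood far above the highest WT library, and the female WT/flox library was the highest of all. The log2 fold change was 4.26 (SE 0.31), a 19.1-fold higher level in WT/flox cells (edgeR adjusted p = 9.0e-05, n = 3 each). Without 74A3, the only WT/flox library of day 56, it was 4.17 (SE 0.34, edgeR adjusted p = 0.000632). By size of log2 fold change Lepr was number 31 of the 290 genes called higher. Gene counts do not separate the receptor's long and short forms.

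Per kb of its main transcript, Lepr held rank 336 of 11952 genes in WT/flox progenitors and rank 5880 in WT progenitors. Among the 10 members it was first in WT/flox cells, at 127 ± 43.8 CPM per kb, where its libraries overlapped those of Cebpd at 111 ± 23.2 CPM per kb. In WT cells it was number 7, at 6.90 ± 1.81 CPM per kb. The genes whose log2 CPM followed Lepr most closely over the 6 progenitor libraries were Cyp2f2 (Pearson r = 0.998), Tcf7l2 (0.997) and Tmem200a (0.997). These points fall into 2 genotype groups, so the values describe mainly a shared genotype difference.

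**Figure D1:**
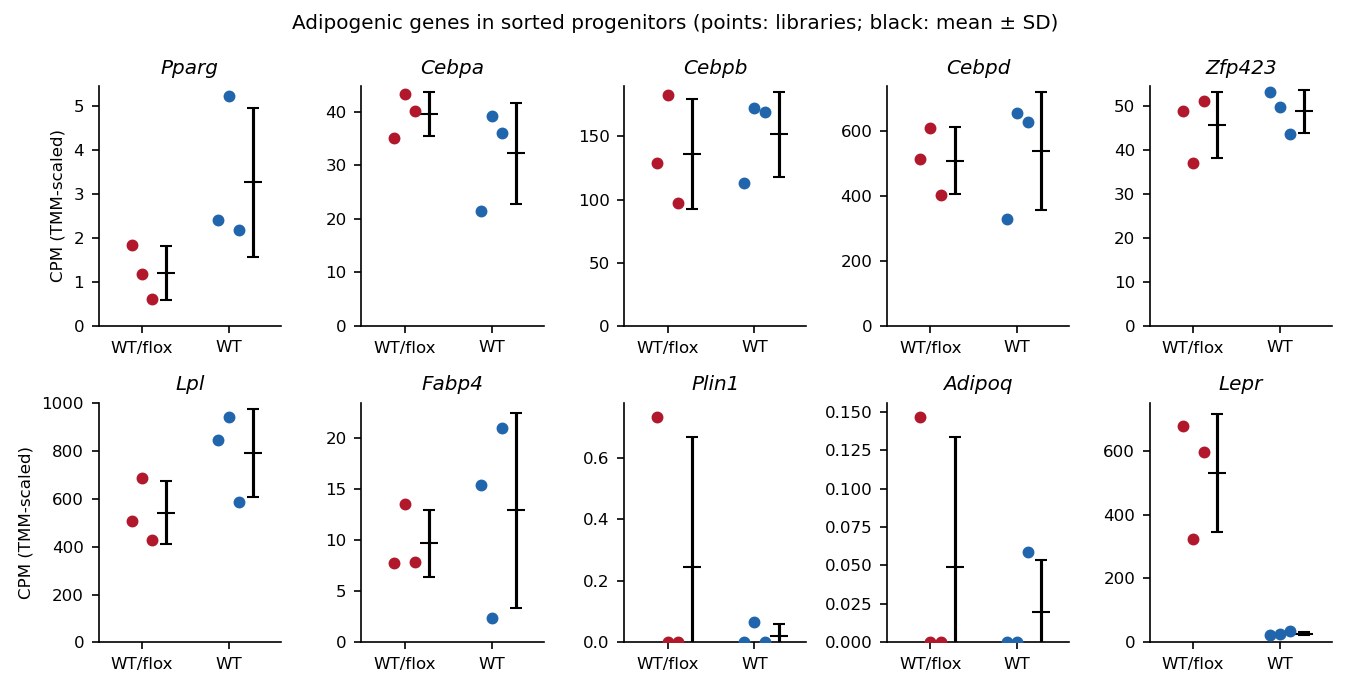
Level of each adipogenic gene in sorted progenitors, in TMM-scaled CPM on a linear axis from 0, for 3 WT/flox libraries (red, left) and 3 WT libraries (blue, right) per panel; black marks are mean ± SD. The Lepr panel shows 323 to 676 CPM in WT/flox cells and 23.9 to 34.5 CPM in WT cells, and Pparg is the other gene whose libraries do not overlap.

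Pparg, the nuclear receptor at the centre of fat cell formation (ENSMUSG00000000440, chromosome 6, 115360951 to 115490399), was at the low end of what was counted in progenitors. It had 25, 16 and 8 counts in WT/flox libraries and 32, 79 and 37 counts in WT libraries, or 1.83, 1.18 and 0.607 CPM in WT/flox cells and 2.41, 5.23 and 2.18 CPM in WT cells. Every WT/flox library was below every WT library, the day-56 library being the lowest and the WT female 74A2 the highest. Its log2 fold change, -1.43 (SE 0.49), was not called (edgeR adjusted p = 0.205). It was -1.11 (SE 0.51) without 74A3 and -0.92 (SE 0.48) without 74A2.

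The early factors Cebpb and Cebpd did not differ beyond the spread of the libraries. Cebpd had 515, 611 and 404 CPM in WT/flox progenitors and 329, 657 and 630 CPM in WT progenitors, a log2 fold change of -0.08 (SE 0.28, edgeR adjusted p = 0.994). Cebpb had 129, 183 and 97.0 CPM in WT/flox cells and 113, 173 and 170 CPM in WT cells (-0.15, SE 0.25, edgeR adjusted p = 0.964). Both were lowest among WT cells in 72B8. That library also had the lowest sum of 14 genes that rise during tissue dissociation, such as Fos and Jun, at 0.648% of its counts. That sum was 0.729 to 1.13% in the WT/flox libraries and 1.34 and 1.53% in the other WT libraries, and its part in these values was not tested. Exons of Cebpb and Cebpd overlap those of Tmem189 and Spidr on the opposite strand, by 312 and 562 bases, and whether the counting used strand is not given in the sources.

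Cebpa, the partner of Pparg in the later steps, had 35.2, 43.4 and 40.3 CPM in WT/flox progenitors and 21.5, 39.2 and 36.1 CPM in WT progenitors. The log2 fold change was 0.30 (SE 0.22, edgeR adjusted p = 0.787), and the groups overlapped. Zfp423, a zinc finger factor that commits mesenchymal cells to the fat lineage, had 48.8, 37.0 and 51.0 CPM in WT/flox cells and 53.1, 49.7 and 43.5 CPM in WT cells (-0.10, SE 0.17, edgeR adjusted p = 0.972).

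Lpl, the lipase that frees fatty acids from blood lipoproteins, had the highest mean per kb of the members in WT progenitors, where its libraries overlapped those of Cebpd. It had 509, 687 and 429 CPM in WT/flox cells and 846, 941 and 587 CPM in WT cells, with -0.55 (SE 0.24) as log2 fold change, which was not called (edgeR adjusted p = 0.400). Only the WT library 73C3 lay within the WT/flox range. Fabp4, a fatty acid carrier of fat cells and of capillary endothelium, was low, with 7.70, 13.5 and 7.81 CPM in WT/flox cells and 15.4, 2.38 and 20.9 CPM in WT cells (-0.42, SE 0.63, edgeR adjusted p = 0.957). The WT libraries span both sides of the WT/flox range. The 10 endothelial markers, summed, were 0.0263 to 0.0317% of counts in WT/flox and 0.0351 to 0.0482% in WT progenitors. In WT cells Tek led this sum, with 17030 counts, and Cdh5 came next with 330. In WT/flox cells Tek had 6130 counts and Kdr 5045. Kdr was called higher (log2 fold change 4.23) and Tek lower (-1.31), so the sum mostly follows these 2 genes. The other 8 markers were not called. The part of the endothelial markers in the Fabp4 values was not tested.

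Plin1, the coat protein of fat cell lipid droplets, had 10 counts in WT/flox library 74A1 and 0 in 72B7 and 74A3, and 1 count over the WT libraries, in 74A2. Adipoq, the fat cell hormone adiponectin, had 2 counts in 74A1 and 0 in the other WT/flox libraries, and 1 count over the WT libraries, in 73C3. A count of 0 allows up to 3 counts, or 0.176 to 0.227 CPM in a progenitor library, counting error only. No genotype difference was detectable for either at this depth. The sum of the 6 mature adipocyte markers was likewise near 0, at 8.95e-05 to 0.000144% of counts in WT/flox and 8.93e-05 to 0.000314% in WT progenitors.

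The other genes of the pathway were read from 7 lists. In progenitors the lists of C/EBP and PPAR relatives (7 tested), other pro-adipogenic regulators (17), lipid uptake, droplets and lipolysis (15), fatty acid and triglyceride synthesis (15) and adipokines (4) had 0 members called in either direction by edgeR. Their median log2 fold changes were -0.11, -0.09, -0.11, -0.12 and 0.27 in that order, against 0.00 over all genes tested. Of 15 inhibitors of adipogenesis 2 were higher and 2 lower, against 2.34% higher and 1.32% lower of all genes tested, with a median of 0.06, and of 11 genes of leptin and adiponectin reception 1 was higher, with a median of 0.07.

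Wisp2, a secreted protein that restrains Zfp423 in preadipocytes, rose to 349 ± 29.6 CPM in WT/flox progenitors, against 43.1 ± 9.82 CPM in WT progenitors (log2 fold change 3.01, SE 0.21, edgeR adjusted p = 7.3e-05). Nr2f2, an orphan receptor that holds Pparg down in preadipocytes, rose by 0.97 (SE 0.19, edgeR adjusted p = 0.0209). Klf2 and Sox9, both factors that hold back fat cell formation, went the other way: Klf2 fell by 1.26 (SE 0.25, edgeR adjusted p = 0.0211) and Sox9 fell by 1.17 (SE 0.25, edgeR adjusted p = 0.0335). The inhibitors therefore did not move in 1 direction. Leprot, whose product lowers the amount of leptin receptor at the cell surface, had 200.4, 188 and 183 CPM in WT/flox cells and 104, 105 and 122 CPM in WT cells (0.78, SE 0.15, edgeR adjusted p = 0.0201). Leprot lies upstream of Lepr on chromosome 4, at 101647718 to 101659364, and does not overlap it in this annotation.

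Without 74A3, 1 of the 15 inhibitors was called, Wisp2, and 0 of the 11 reception genes. Over all genes, calls numbered 262 to 483 across the fits with 1 library left out, against 454 with all libraries. Without 74A3 the log2 fold change was 0.97 for Nr2f2 (edgeR adjusted p = 0.0837), -1.17 for Klf2 (0.117), -1.05 for Sox9 (0.148) and 0.81 for Leprot (0.0742), close to the values with all libraries. Nr2f2 and Leprot kept their call only without 73C3 among the 6 libraries left out in turn, Klf2 lost its call also without 72B7 (0.123), and Sox9 also without 74A2 (0.0823), 73C3 (0.0797) and 74A1 (0.129). The signalling genes downstream of the receptor, Jak2 (0.19, SE 0.16), Stat3 (0.35, SE 0.16) and Socs3 (-0.02, SE 0.52), did not pass in progenitors. Nor did they in muscle, at 0.23 (SE 0.24), 0.45 (SE 0.14) and 1.44 (SE 0.34). Stat3 was higher in every WT/flox library of both materials, and Socs3 in muscle. So were 8.73% of genes tested in progenitors and 12.4% in muscle. These 3 genes are named although outside the rule for named genes.

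**Figure D2:**
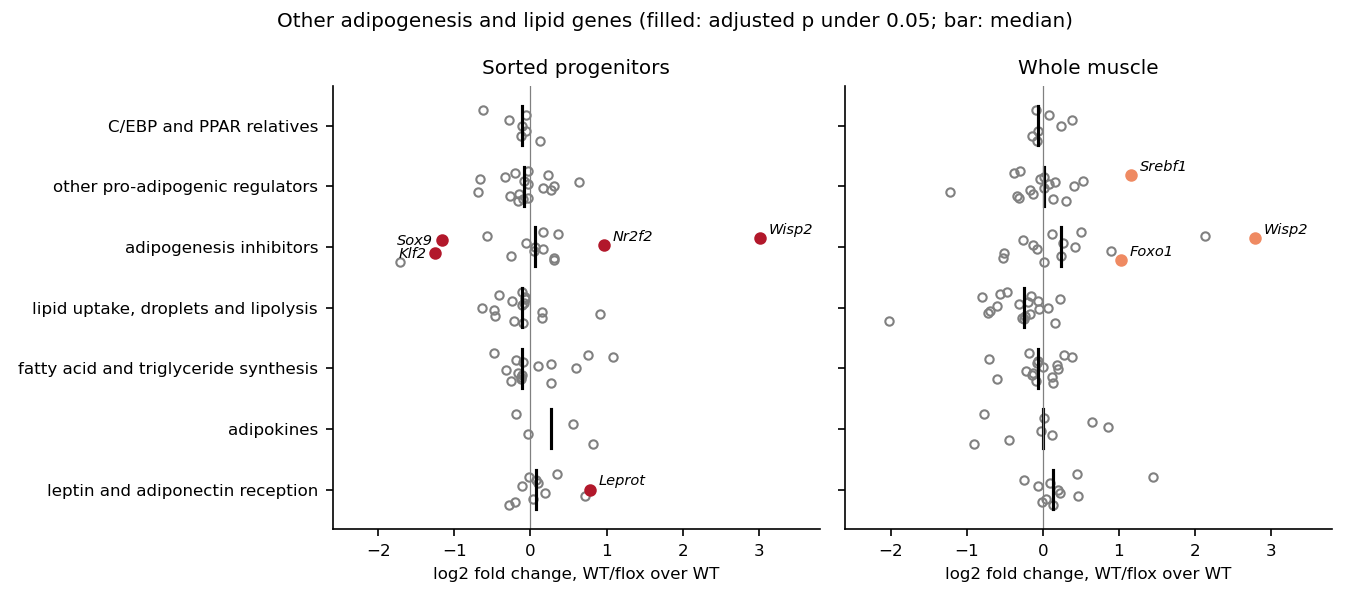
Log2 fold change, WT/flox over WT, of each tested gene of 7 lists in sorted progenitors (left) and whole muscle (right); filled points have an edgeR adjusted p under 0.05 and black bars are list medians. Wisp2 stands far to the right in both panels, at 3.01 in progenitors and 2.79 in muscle, while Sox9 and Klf2 are the filled points below 0.

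In whole muscle 1 of the 10 members, Lepr, was called, again higher in WT/flox, against 0.727% of all 12654 genes tested (0.514% higher). Genotypes were fully apart for 4 of the 10, against 25.3% of all genes tested in this design of 3 libraries against 2. Lepr and Zfp423 were higher in every WT/flox library, as were 12.4% of genes, and Fabp4 and Pparg lower, as were 12.9%. In a bulk sample fewer cells of a type and less RNA per cell cannot be told apart.

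Lepr had 145, 145 and 188 counts in WT/flox muscle and 53 and 49 in WT muscle, or 7.64, 7.74 and 8.997 CPM in WT/flox and 3.17 and 3.14 CPM in WT. The 2 WT libraries were nearly alike and all 3 WT/flox libraries were above them. The log2 fold change was 1.36 (SE 0.19), a 2.57-fold higher level (edgeR adjusted p = 0.0280). The call rests on few libraries: without 71B3, 71B4 or 71B5 the log2 fold change was 1.41, 1.40 or 1.28 and the edgeR adjusted p 0.0560, 0.130 or 0.147. It was also lost with scaling by library totals (1.49, edgeR adjusted p = 0.0738) and in the joint fit over all 11 libraries (1.37, edgeR adjusted p = 0.0908).

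The 11 progenitor markers, led by Dcn and Col1a1, made up 0.119 to 0.130% of counts in WT/flox muscle and 0.0545 to 0.0856% in WT muscle. The sum was also higher in sorted WT/flox progenitors, at 4.35 to 4.64% against 2.84 to 3.40% in WT. There Col1a1 was called higher (1.16, edgeR adjusted p = 0.00998) and Dcn was not (0.46, 0.437). The sum in muscle is therefore not a measure of progenitor number alone. In muscle 9 of the 11 markers had a positive log2 fold change, with a median of 0.27, against 0.00 over all genes. Of the 11, 1 was called higher, Cxcl14 (1.54, edgeR adjusted p = 0.0487), against 0.514% of all genes tested. Without 71B3, 71B4 or 71B5 the log2 fold change of Cxcl14 was 1.54, 1.55 or 1.55 and its edgeR adjusted p 0.0658, 0.164 or 0.257. Their part in the Lepr result was not tested. The genes most like Lepr over the 5 muscle libraries were Ildr1 (Pearson r = 0.9996), Mblac2 (0.9996) and Lox (0.9993), as a description. In both materials 28 genes were called higher, 9.66% of the 290 in progenitors and 43.1% of the 65 in muscle, and Lepr was 1 of them.

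**Figure D3:**
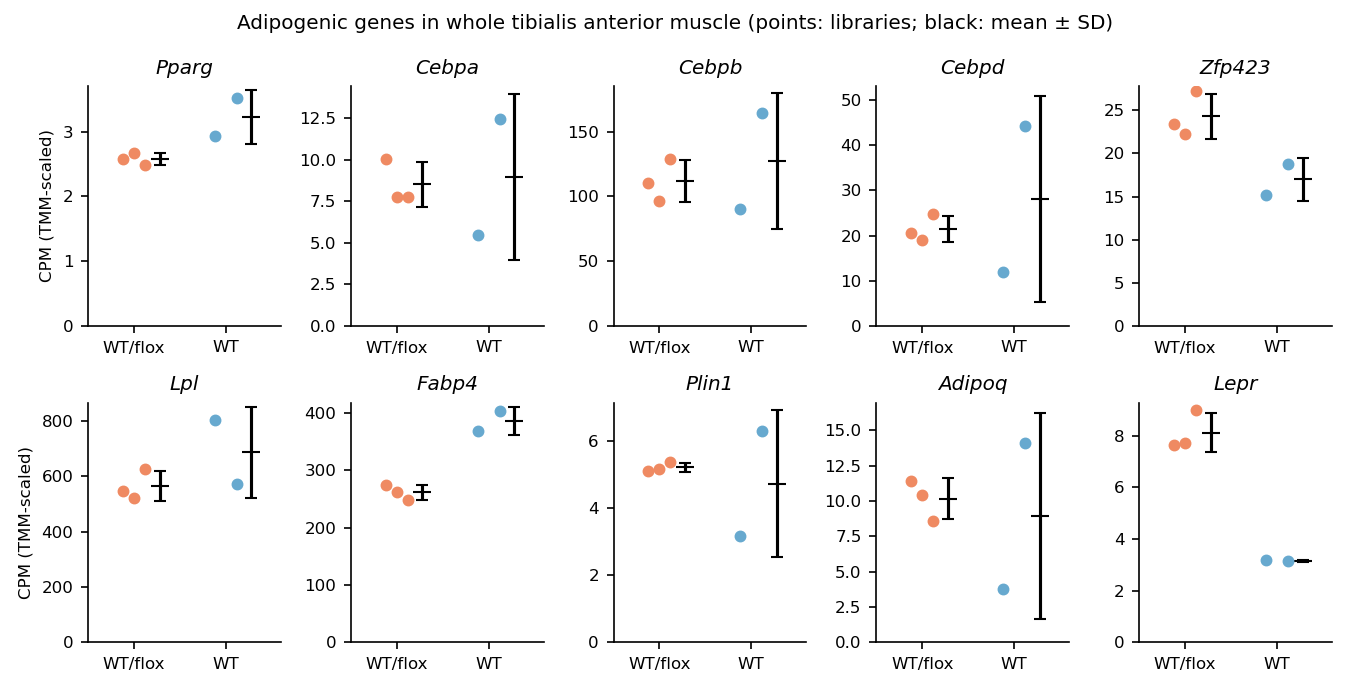
Level of each adipogenic gene in whole tibialis anterior muscle, in TMM-scaled CPM on a linear axis from 0, for 3 WT/flox libraries (orange, left) and 2 WT libraries (light blue, right) per panel; black marks are mean ± SD. Lepr lies at 7.64 to 8.997 CPM in WT/flox and 3.14 to 3.17 CPM in WT muscle, and the 2 WT libraries stand far apart for Cebpa, Cebpb, Cebpd, Plin1 and Adipoq.

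Fabp4 had 275, 262 and 248 CPM in WT/flox muscle and 369 and 403 CPM in WT muscle. All WT/flox libraries were below both WT libraries, and the log2 fold change was -0.56 (SE 0.14), which edgeR did not call (adjusted p = 0.162) and DESeq2 did (adjusted p = 0.0113). The endothelial markers, summed, were 0.0374 to 0.0443% of counts in WT/flox and 0.0446 to 0.0501% in WT muscle. Of these markers, 10 of 10 had a negative log2 fold change with 0 called by edgeR. Their median was -0.37, against 0.00 over all genes tested. The sum of the mature adipocyte markers was 0.0233 to 0.0261% in WT/flox and 0.0245 to 0.0277% in WT muscle. It mostly follows 1 gene, Plin4, with 11095 counts summed over 3 WT/flox libraries and 6809 over 2 WT muscle libraries. Cfd came next, with sums of 2138 and 1585. These sums are not scaled for the number of libraries. On the scaled level the log2 fold changes were negative, -0.15 for Plin4 and -0.44 for Cfd, and edgeR called neither. The part of either marker set in the Fabp4 values was not tested.

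Zfp423 had 23.5, 22.2 and 27.2 CPM in WT/flox muscle and 15.2 and 18.8 CPM in WT muscle (log2 fold change 0.52, SE 0.17, edgeR adjusted p = 0.316). The groups did not overlap, as was so for the sum of the progenitor markers, and the difference was not called. Pparg had 2.58, 2.67 and 2.49 CPM in WT/flox muscle and 2.93 and 3.52 CPM in WT muscle, a difference of -0.32 (SE 0.22, edgeR adjusted p = 0.740). Lpl had 548, 521 and 625 CPM in WT/flox and 802 and 571 CPM in WT muscle (-0.28, SE 0.19, edgeR adjusted p = 0.721), with WT library 73A7 inside the WT/flox range.

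For Cebpa, Cebpb, Cebpd, Plin1 and Adipoq the 2 WT muscle libraries enclosed all 3 WT/flox libraries. Cebpd had 20.5, 19.1 and 24.7 CPM in WT/flox muscle and 12.03 and 44.2 CPM in WT muscle. Adipoq had 11.4, 10.5 and 8.61 CPM in WT/flox muscle and 3.77 and 14.1 CPM in WT muscle. In each of these genes 73A5 was the low and 73A7 the high WT library. Their log2 fold changes, from -0.39 for Cebpd to 0.19 for Adipoq, depended on the WT library kept: without 73A5 Cebpd was called lower (-1.04, edgeR adjusted p = 0.0232), and without 73A7 Adipoq was called higher (1.43, edgeR adjusted p = 0.0289). Each of these leaves 1 WT library, which is assumed to vary like the WT/flox libraries.

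Of the other lists in muscle, 2 of 15 inhibitors and 1 of 17 other pro-adipogenic regulators were called higher, against 0.514% of all genes tested. Called in either direction, against 0.727% of all genes, were 0 of the 7 C/EBP and PPAR relatives, 19 genes of lipid uptake, droplets and lipolysis, 16 of synthesis, 8 adipokines and 11 of reception. Wisp2 rose to 23.4, 17.6 and 15.98 CPM in WT/flox muscle, against 1.98 and 3.52 CPM in WT muscle (log2 fold change 2.79, SE 0.30, edgeR adjusted p = 0.00910). Foxo1, a factor that holds back Pparg, rose by 1.03 (SE 0.14, edgeR adjusted p = 0.0213), and Srebf1, a regulator of lipid synthesis, rose by 1.16 (SE 0.14, edgeR adjusted p = 0.0161). Without 71B4 Foxo1 had 0.99 (edgeR adjusted p = 0.162) and Srebf1 1.15 (0.110), and without 71B5 Foxo1 had 1.04 (0.107), Srebf1 1.13 (0.107) and Wisp2 2.90 (0.0833), so calls were lost at log2 fold changes close to those with all libraries. Of the 19 genes of lipid uptake, droplets and lipolysis 3 had a positive log2 fold change, and the list's median was -0.25, against 0.00 over all genes tested.

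**Figure D4:**
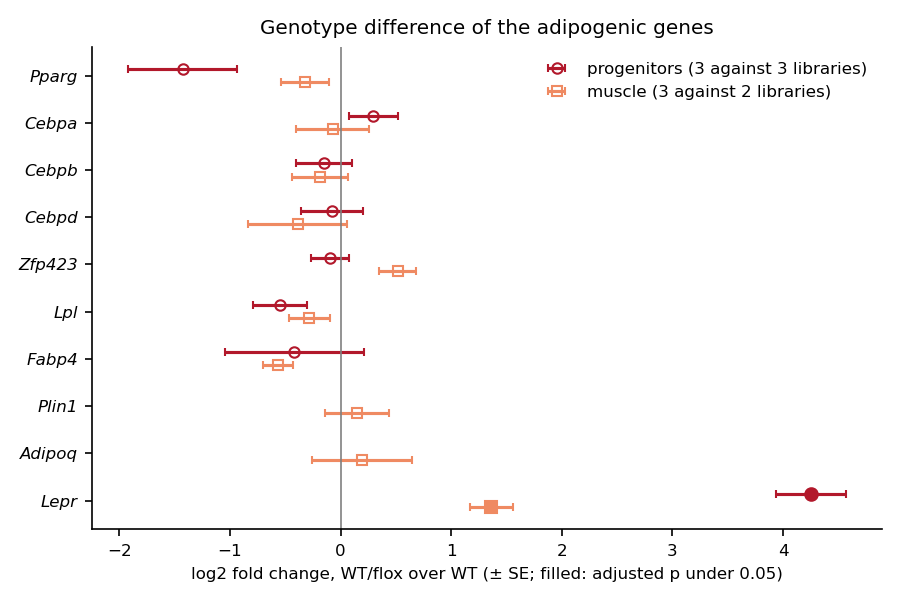
Log2 fold change of each adipogenic gene, WT/flox over WT, with SE bars, in progenitors (circles, 3 against 3 libraries) and muscle (squares, 3 against 2 libraries); filled symbols have an edgeR adjusted p under 0.05. Lepr, in the bottom row, is the filled gene in both, at 4.26 in progenitors and 1.36 in muscle, and Plin1 and Adipoq have no progenitor value because they were not tested there.

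The genotype difference of Lepr was larger in progenitors than in muscle. In the joint fit over all 11 libraries the 2 log2 fold changes differed by 2.83 (SE 0.41, edgeR adjusted p = 0.00416, against 0.769% of 13781 genes called). No other member passed that test: Zfp423 had -0.66 (SE 0.24, edgeR adjusted p = 0.379) and Pparg -1.15 (SE 0.58, edgeR adjusted p = 0.639). Outside the members, the Wnt target Axin2 was also called in it, with a larger difference of 4.63. Material and day after tamoxifen change together here, except for library 74A3.

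Between the WT groups, 7 of the 10 members differed between progenitors and muscle, where 76.1% of all genes tested were called. All WT progenitor libraries are from day 14 and all WT muscle libraries from day 56, so material and day cannot be told apart here. WT muscle is all male, while the WT progenitors include the female 74A2. Higher in progenitors were 4 members, against 38.6% of genes, and 3 were lower, against 37.5%. Cebpd (log2 fold change 3.71, SE 0.50, edgeR adjusted p = 1.4e-05), Lepr (2.58, SE 0.33, 6.3e-06), Cebpa (1.29, SE 0.33, 0.00248) and Zfp423 (0.95, SE 0.19, 0.000347) were higher in progenitors. Fabp4 was lower in progenitors by 5.45 on the log2 scale (SE 0.60, edgeR adjusted p = 2.7e-06). The dissociation genes made up 0.648 to 1.53% of counts in WT progenitors and 0.0555 to 0.0639% in WT muscle, and their part in the Cebpd difference was not tested.

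Plin1 had 1 count over the WT progenitor libraries and 151 over the WT muscle libraries, a level 314-fold lower in progenitors (95% counting interval 55.5 to 12477). Adipoq had 1 count in WT progenitors and 283 in WT muscle, 588-fold lower (95% counting interval 105 to 23313). These intervals hold counting error only and leave out the spread between animals. Both genes were called lower by edgeR, with log2 fold changes of -7.80 for Plin1 and -8.72 for Adipoq. Pparg (-0.56, SE 0.41), Cebpb (-0.31, SE 0.30) and Lpl (-0.38, SE 0.25) did not pass, and the sign of all 3 turned positive with scaling by library totals, which shifted the median of all genes by 0.75 on the log2 scale.

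Set side by side per kb of transcript, on a scale joint to both materials, the order of the members differed by material. In WT/flox progenitors Lepr, Cebpd, Lpl and Cebpb formed the upper group, from 127 to 74.1 CPM per kb, each overlapping the next. In WT progenitors Lpl, Cebpd and Cebpb led, from 161 to 85.2 CPM per kb, and Lepr stood in the lower group with Fabp4, Cebpa and Zfp423, from 12.3 to 6.90 CPM per kb. Pparg was at 0.558 ± 0.285 CPM per kb in WT/flox and 1.55 ± 0.766 CPM per kb in WT progenitors. In muscle Fabp4 led, at 366 ± 19.8 CPM per kb in WT/flox and 538 ± 28.3 CPM per kb in WT, followed by Lpl and Cebpb. Lepr was at 2.99 ± 0.273 CPM per kb in WT/flox muscle, number 8 of the 10, and at 1.16 ± 0.0193 CPM per kb in WT muscle, number 10.

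**Figure D5:**
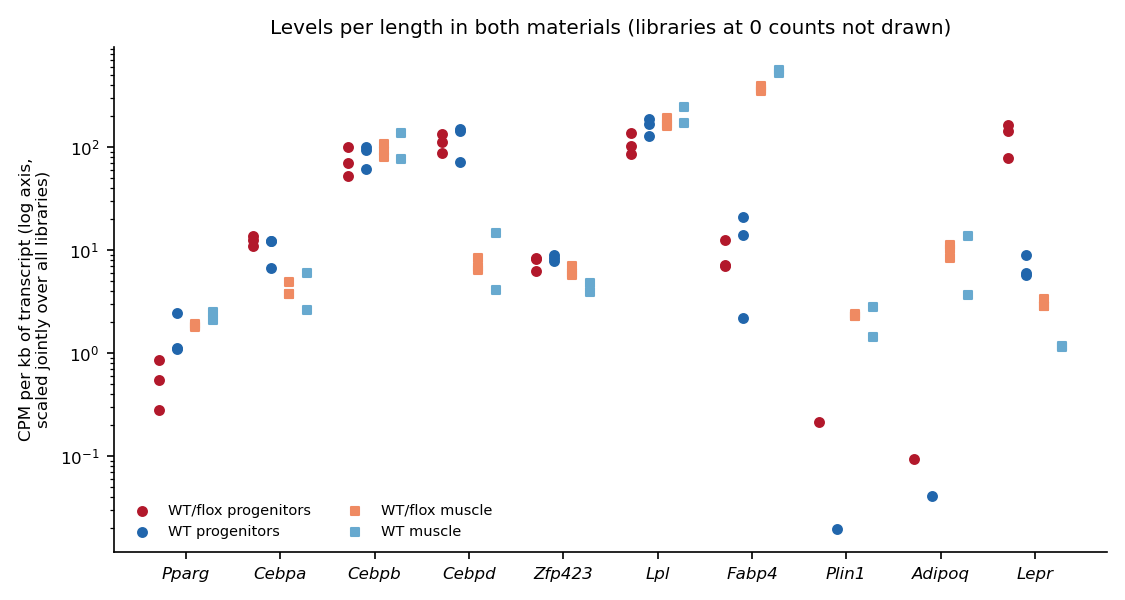
Level of each adipogenic gene per kb of its main transcript, in CPM scaled jointly over all 11 libraries, on a log axis; each point is 1 library of WT/flox progenitors, WT progenitors, WT/flox muscle or WT muscle, from left to right. Fabp4, Plin1 and Adipoq are far lower in progenitors than in muscle, and Lepr in WT/flox progenitors lies above its other 3 groups; libraries with 0 counts are not drawn.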

How the data were processed

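RNA was sequenced from 6 libraries of sorted progenitors and 5 of muscle lysate, using a stranded mRNA kit and paired reads of 43 bases (per the labels' protocols). Bowtie, STAR, bcl2fastq 2.20 and the mm10 build are named in the submitters' processing notes. Neither the counting step nor its use of strand is given in the sources used here. Deposited by the authors were whole-number counts per gene symbol, 1 table per material, with 0 rows that name no gene. The deposited sample tables call the lysates FAPs as well; the labels were followed.

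Each material was tested with edgeR 4.0.16 in R 4.3.3 (filterByExpr, TMM, robust quasi-likelihood F test, two-sided, Benjamini-Hochberg over all genes tested, threshold 0.05), and a joint fit over 11 libraries tested material and interaction. SE values follow from the F statistic. The test was checked on simulated counts. Alternatives were RLE or total scaling, no filter, DESeq2 1.42.0, limma 3.58.1 voom, a sex term, an identifier block and leaving out libraries. Within groups, libraries differed by more than sampling noise (lowest chi-square/df 9.65). Levels per kb use the principal transcript of GENCODE M21 (23376 of 24421 symbols matched). The members and lists were chosen with earlier results of these data known. Named genes are the 10 members, 3 check genes, up to 4 called genes per list and material by adjusted p, the 2 most abundant markers per marker list and, for a called member, the 3 genes most correlated with it; Kdr, Tek, Cxcl14, Jak2, Stat3 and Socs3 were added after their values were seen.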

Additional observations from a re-analysis of the deposited data

Results flagged for a closer look

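The genotype difference of Lepr differed between the materials by a test of the difference itself: the log2 fold change in progenitors minus that in muscle was 2.83 (SE 0.41, edgeR adjusted p = 0.00416 in the joint fit over 11 libraries). All 3 WT/flox libraries exceeded all WT libraries in progenitors, as for 8.73% of genes tested, and in muscle, as for 12.4%. The difference was called under all 16 alternatives tried, at 2.62 to 3.09 with 1 library left out. The Wnt target Axin2 was also called in this contrast, at 4.63, so such a difference was not particular to Lepr. Progenitors from day 14, with 1 library of day 56, stand against muscle from day 56, so day and material cannot be told apart.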

How the results depend on the processing

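Lepr in progenitors was called under all 15 alternatives, and its loss of call in muscle is given with the result. Genes called numbered 454 in progenitors (755 with DESeq2, 262 to 483 with 1 library left out), 92 in muscle (54 with library totals, 139 without a filter, 267 with DESeq2 and 0 to 239 with 1 library left out) and 106 for the interaction (272 with DESeq2, 54 to 114). The 0 calls, without 71B5, stand beside 1023 genes at an unadjusted edgeR p under 0.05. Library totals shifted the median of all genes by 0.13 in muscle, 0.75 between materials and -0.19 for the interaction. Of the calls in muscle 70.7% were higher with edgeR and 59.6% with DESeq2. Members called in muscle numbered 1, against 0 with totals or the joint fit, 2 with DESeq2 and 0 to 2 with 1 library left out; leaving out a WT muscle library leaves 1, assumed to vary like the other libraries. Pparg was called lower in WT progenitors than in WT muscle without 74A2 (-1.04, adjusted p = 0.0272). Whether the replicate numbers of the deposited sample tables pair the libraries could not be decided. Deviations of same-numbered progenitor libraries correlated at 0.28, -0.00245 and -0.19, which is too few pairs to show or exclude pairing. The 2 WT muscle libraries have deviations that mirror each other, so correlations cannot decide it in muscle. A replicate block called 491 genes in progenitors and 178 in muscle, Lepr among both.

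Signs that turned were all of members that did not pass. In progenitors the identifier block gave 0.060 for Cebpd and 0.71 for Fabp4, and voom 0.018 for Fabp4. In muscle Cebpa was 0.058 with totals and 0.042 with voom. Between materials, totals gave 0.13 for Pparg, 0.36 for Cebpb and 0.30 for Lpl. For the interaction Cebpb was 0.024 with RLE and 0.024 with DESeq2, Fabp4 -0.026 with totals and Adipoq -0.12 with voom. With 1 library left out the ranges were, in progenitors, -0.43 to 0.042 for Cebpb, -0.34 to 0.083 for Cebpd, -0.92 to 0.14 for Fabp4 and -0.18 to 0.033 for Zfp423. In muscle they were -0.55 to 0.64 for Cebpa, -0.56 to 0.31 for Cebpb, -1.04 to 0.83 for Cebpd, -0.27 to 0.71 for Plin1 and -0.47 to 1.43 for Adipoq. Between materials Cebpb ran from -0.67 to 0.14. For the interaction they were -0.37 to 0.78 for Cebpa, -0.48 to 0.33 for Cebpb, -0.93 to 0.89 for Cebpd, -0.43 to 0.69 for Fabp4, -1.91 to 4.57 for Plin1 and -1.95 to 2.40 for Adipoq. The cause of these changes was not tested.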
